A study of Rattus norvegicus and Mus musculus with 24 samples.

Results

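The 9 genes CDKN1A, MDM2, CCNG1, PHLDA3, TP53INP1, GDF15, BAX, EDA2R and ZMAT3 are known targets of the transcription factor p53. They were taken by symbol from the 17376 gene rows of the mouse table and the 14931 gene rows of the rat table, and both tables hold all 9. The study sequenced RNA from kidneys lacking Ctns, the gene of the lysosomal cystine exporter cystinosin, whose loss lets cystine build up in lysosomes and causes the kidney disease cystinosis. The mice were on a C57BL/6 background (4 Ctns KO, 4 Ctns WT) and the rats on a Sprague-Dawley background (8 Ctns KO, 8 Ctns WT), with WT littermates as controls and 1 library per animal. The study's reporting summary describes its mice as female and of several ages. The age of each sequenced animal, the sex of the rats and any treatment are not tied to samples in the sources used here. The tissue is labelled kidney cortex, while the extraction protocol names dissected proximal tubules, and RNA of several cell types was present. The rats carry numbers 17 to 24 or 25 to 32, with 4 KO and 4 WT rats in each range, and the meaning of the ranges is not labelled.

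The p53 protein is stabilized by DNA damage and other stresses, binds response elements in its target genes and raises their transcription. Its targets include CDKN1A, which encodes the cyclin-dependent kinase inhibitor p21 and halts the cell cycle, genes that promote apoptosis, and MDM2, which encodes the ubiquitin ligase that marks p53 for degradation and so closes a feedback loop. In kidney tubules p21 is known as a marker of injury and of arrested cells.

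The promoter windows of the rat genes were read first, because they show where p53 could bind near the start of 2 of the members. RefSeq windows on build GRCr8, from 250 bases before to 50 bases after a gene's start, were given for 33469 starts, and 6 members matched in 7 windows. The p53 response element was searched for by its 20-letter consensus without a spacer, which reads the same on both strands. With the core C and G letters fixed and at most 1 mismatch elsewhere, it lay in 17 of all windows, which is 0.0508% of them. The windows of Cdkn1a and Ccng1 were among these 17. In both sequences below the capitals mark the 20 letters aligned to the element, of which 1 in each is a mismatch.
Cdkn1a, chr20:7150726-7150755, plus strand: ttcagGAACATGTCTTGACTTGTTCagccc
Ccng1, chr10:25685094-25685123, minus strand: cagctAGACCTGCCCGGGCAAGCCTtggca
The centre of the match lay 191 bases before the start of Cdkn1a and 232 bases before that of Ccng1. The closest match had 7 mismatches in the Mdm2 window, 11 in the Phlda3 window and 6 and 7 in the Gdf15 windows, and the Eda2r window held none with the core letters. These matches describe letters in short windows, and binding was not measured. Elements outside the windows or with a spacer were not searched for, so a poor match does not mean that a gene lacks one. TP53INP1, BAX and ZMAT3 had no window.

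Depth was similar across groups, with 19309449 to 44449859 reads on genes per mouse and 24684097 to 40629873 per rat. Ctns itself, the check of the labels, fell in KO mice from a scaled value of 0.918 to 0.332 with no overlap. In rats it was 22.3 CPM in WT and 19.1 CPM in KO, and the genotypes overlapped, so the deletion in rats could not be read from Ctns reads.

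In mice all 9 genes were higher in KO than in WT kidneys in every animal. The mouse values are reads scaled to the 75th percentile of reads per gene in the same library, so that 1 is a gene at that percentile. The members were chosen by their measured change of KO over WT in mice and in rats, also within each number range, so the values below describe that change and no p is given for it. Log2 fold changes (log2FC) for mice are from edgeR on the reads recovered from the scaled values.

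CDKN1A, the p21 gene, was 1.03, 1.69, 1.55 and 1.12 in the KO mice. In the WT mice it was 0.208, 0.156, 0.202 and 0.163. The lowest KO mouse thus stood well above the highest WT mouse. The means were 1.35 ± 0.323 and 0.182 ± 0.0266 (SD, n = 4 each), a 7.40-fold difference, with a log2FC of 2.86 ± 0.19 (SE). Cdkn1a lies on chromosome 17 from 29090976 to 29100727 on the plus strand of GRCm38, and its body overlaps a transcript on the opposite strand (AC167363.2), whose reads could be told apart only if the counting used strand, which is not stated.

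The other genes of arrest and growth control rose by smaller factors. PHLDA3 encodes a repressor of AKT signalling. It was 0.336, 0.456, 0.433 and 0.350 in KO mice and 0.130 to 0.155 in WT mice, a 2.76-fold difference of means (log2FC 1.45 ± 0.12). CCNG1 encodes cyclin G1, which acts with MDM2 on p53. It was 6.11 to 7.88 in KO mice and 4.28 to 5.16 in WT mice, 1.5-fold higher (log2FC 0.56 ± 0.09). ZMAT3 encodes an RNA-binding protein that alters splicing and mRNA stability. It was 0.747 to 0.944 in KO mice and 0.447 to 0.523 in WT mice, 1.76-fold higher (log2FC 0.79 ± 0.09).

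The genes of apoptosis split into large and small differences. EDA2R, a receptor of the TNF receptor family for ectodysplasin A2, had the highest ratio of the 9. It was 0.170, 0.234, 0.255 and 0.194 in KO mice and 0.0171 to 0.0340 in WT mice, a ratio of 8.68 (log2FC 3.14 ± 0.20) on 162 to 404 reads in KO and 22 to 49 reads in WT libraries. TP53INP1, a stress protein that promotes p53 activity and autophagy, was 1.08 to 1.25 in KO mice and 0.464 to 0.762 in WT mice, 1.86-fold higher (log2FC 0.88 ± 0.14). BAX, the protein that permeabilizes the outer mitochondrial membrane, was 0.794 to 0.916 in KO mice and 0.599 to 0.685 in WT mice, 1.31-fold higher (log2FC 0.37 ± 0.07). Bax reads are uncertain to the extent that they can be shared with Gm45808, an annotated gene on the same strand that overlaps it.

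GDF15, a secreted stress hormone of the TGF-beta family, was 0.317, 0.332, 0.281 and 0.335 in KO mice. In WT mice it was 0.0389 to 0.0676, which gives a 5.97-fold difference (log2FC 2.55 ± 0.15). MDM2, the negative regulator of p53, showed the smallest ratio, 1.28 (log2FC 0.34 ± 0.09). It was 1.43, 1.27, 1.48 and 1.37 in KO mice and 1.02, 1.26, 1.10 and 0.948 in WT mice, so that the lowest KO mouse barely cleared the highest WT mouse.

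**Figure D1:**
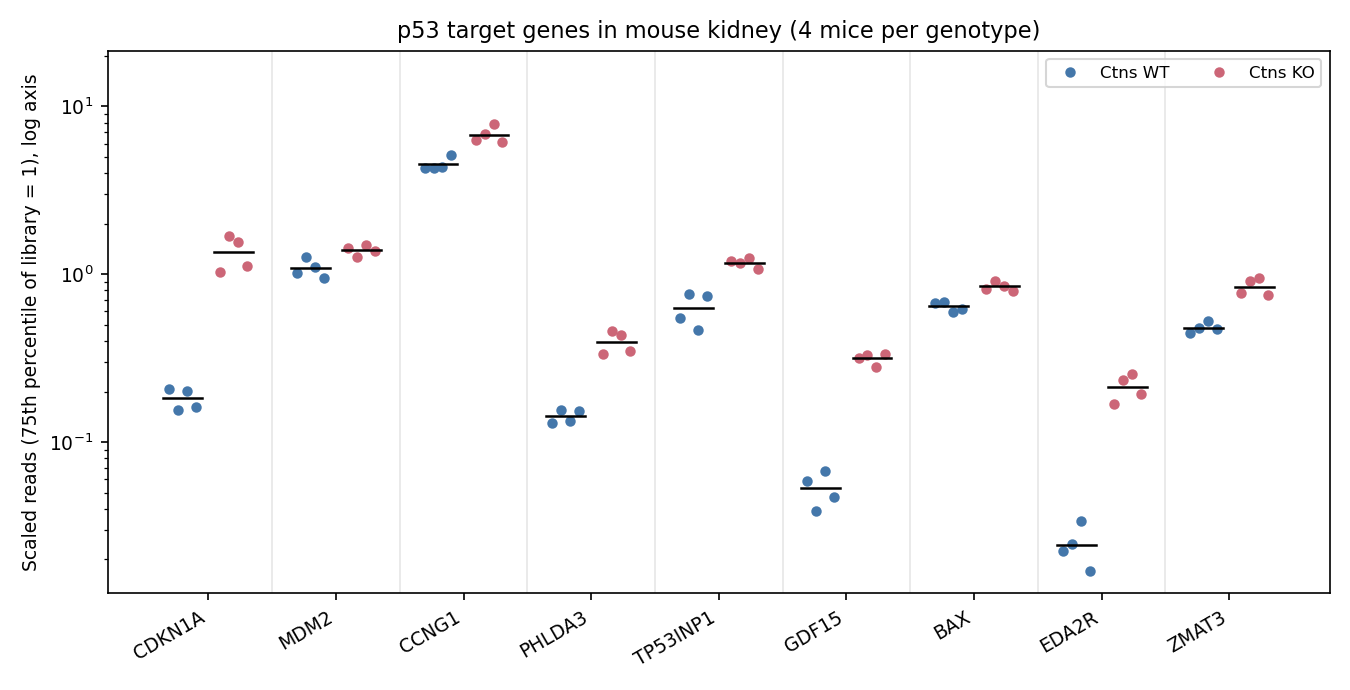
Scaled reads of the 9 p53 target genes in each mouse, on a log axis; points are single mice (4 Ctns WT in blue, 4 Ctns KO in red) and bars are means. All 9 genes are higher in every KO mouse than in any WT mouse, with gaps that are wide for CDKN1A, EDA2R and GDF15 and narrow for MDM2.

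Groups did not overlap, with KO above WT, for 9 of 9 members and for 7.66% of the 17376 symbols. By limma on log2(value + 1), 8 of the 9 passed an adjusted p of 0.05 as higher, all but MDM2, where 3.5% of all symbols did, and 0 of 9 passed as lower, where 0.817% did. These shares rest on 609 and 142 symbols, and without 1 mouse the counts were 297 to 587 higher and 34 to 145 lower, the lowest without WT mouse 4 and KO mouse 6. The members' median change on that scale was 0.31, against 0.00 over all symbols, and it understates the change of low genes. MDM2 passed with edgeR on recovered reads, which called 6.06% of symbols higher. As the comparison chose the members, nothing is read from these counts.

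Compared per kilobase of exon, CCNG1 was the most abundant member in mice, with 62.6 ± 6.01 CPM per kb in WT and 92.5 ± 10.5 in KO kidneys (SD, n = 4). BAX came next with 19.9 and 25.7 CPM per kb, and EDA2R was lowest with 0.200 and 1.73 CPM per kb. CDKN1A stood sixth in WT kidneys at 2.49 ± 0.373 CPM per kb, and behind only CCNG1 and BAX in KO kidneys at 18.2 ± 4.25. Between these ends neighbours were not all distinct. In WT kidneys TP53INP1 overlapped PHLDA3 and CDKN1A overlapped ZMAT3, and in KO kidneys CDKN1A overlapped MDM2, MDM2 overlapped PHLDA3, and TP53INP1 overlapped GDF15.

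In rats the size of the difference depended on the number range. Rat values are CPM, reads relative to the library's total, normalized by edgeR's TMM method. CDKN1A was 19.5, 22.6, 15.4 and 24.2 CPM in KO rats 18, 20, 22 and 24, and 84.4, 111, 94.0 and 84.5 CPM in KO rats 26, 28, 30 and 32. In WT rats it was 4.43 to 7.05 CPM in the range 17 to 24 and 5.24 to 6.82 CPM in the range 25 to 32. The WT rats of both ranges thus lay together, the KO rats 17 to 24 above them, and the KO rats 25 to 32 above all others. The log2FC of KO over WT was 1.78 ± 0.17 in rats 17 to 24 and 3.95 ± 0.12 in rats 25 to 32, on mean ratios of 3.41 and 15.5.

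PHLDA3 had the same order. It was 13.3, 18.2, 14.5 and 19.1 CPM in KO rats 17 to 24 and 38.8, 53.8, 41.7 and 43.2 CPM in KO rats 25 to 32. WT rats ranged from 8.46 to 9.58 CPM and from 7.36 to 9.23 CPM in the 2 ranges. The log2FC was 0.83 ± 0.12 and 2.45 ± 0.11. CCNG1 was 162 to 202 CPM in KO rats 17 to 24 and 235 to 277 CPM in KO rats 25 to 32, against 124 to 149 and 148 to 159 CPM in WT rats (log2FC 0.40 ± 0.08 and 0.77 ± 0.07). For both genes all 8 KO rats were above all 8 WT rats.

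GDF15 was 22.3, 20.4, 25.1 and 22.2 CPM in KO rats 17 to 24 and 42.9, 60.1, 52.3 and 52.8 CPM in KO rats 25 to 32. It was also higher in the WT rats of the second range, at 11.5 to 13.7 CPM, than in those of the first, at 7.52 to 10.6 CPM. Its log2FC was 1.43 ± 0.12 and 2.03 ± 0.11.

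MDM2 and BAX overlapped between genotypes in rats 17 to 24 and separated in rats 25 to 32. MDM2 was 63.5 to 72.6 CPM in KO and 56.7 to 66.3 CPM in WT rats of the first range (log2FC 0.14 ± 0.07). In the second it was 86.3 to 110 CPM in KO and 59.9 to 69.0 CPM in WT rats (log2FC 0.58 ± 0.08). BAX was 37.1 to 41.7 CPM in KO and 33.2 to 39.6 CPM in WT rats of the first range (log2FC 0.10 ± 0.07). In the second it was 53.4 to 62.2 CPM in KO and 33.1 to 39.1 CPM in WT rats (log2FC 0.64 ± 0.08).

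TP53INP1 and ZMAT3 differed little in either range. TP53INP1 was 7.22 to 10.7 CPM in KO and 6.06 to 9.95 CPM in WT rats 17 to 24, and 6.84 to 15.4 CPM in KO and 8.08 to 12.2 CPM in WT rats 25 to 32 (log2FC 0.29 ± 0.16 and 0.30 ± 0.24). ZMAT3 was 16.8 to 19.4 CPM in KO and 13.3 to 16.1 CPM in WT rats 17 to 24, without overlap, and 15.9 to 21 CPM and 12.0 to 17.4 CPM in rats 25 to 32, with overlap (log2FC 0.31 ± 0.08 and 0.25 ± 0.14).

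EDA2R had too few reads in rats for the filter on low counts. KO rats 18, 20, 22 and 24 had 8, 17, 2 and 5 reads and KO rats 26, 28, 30 and 32 had 30, 11, 23 and 4, a sum of 100. WT rats had 0 to 6 reads each, a sum of 16 over 8 rats, with no read in WT rats 21, 29 and 31. A count of 0 allows up to 0.0922 to 0.113 CPM in these 3 libraries, for counting error only. The genotypes overlapped in rats 17 to 24 and did not in rats 25 to 32, where the lowest KO rat had 0.162 CPM and the highest WT rat 0.155 CPM.

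**Figure D2:**
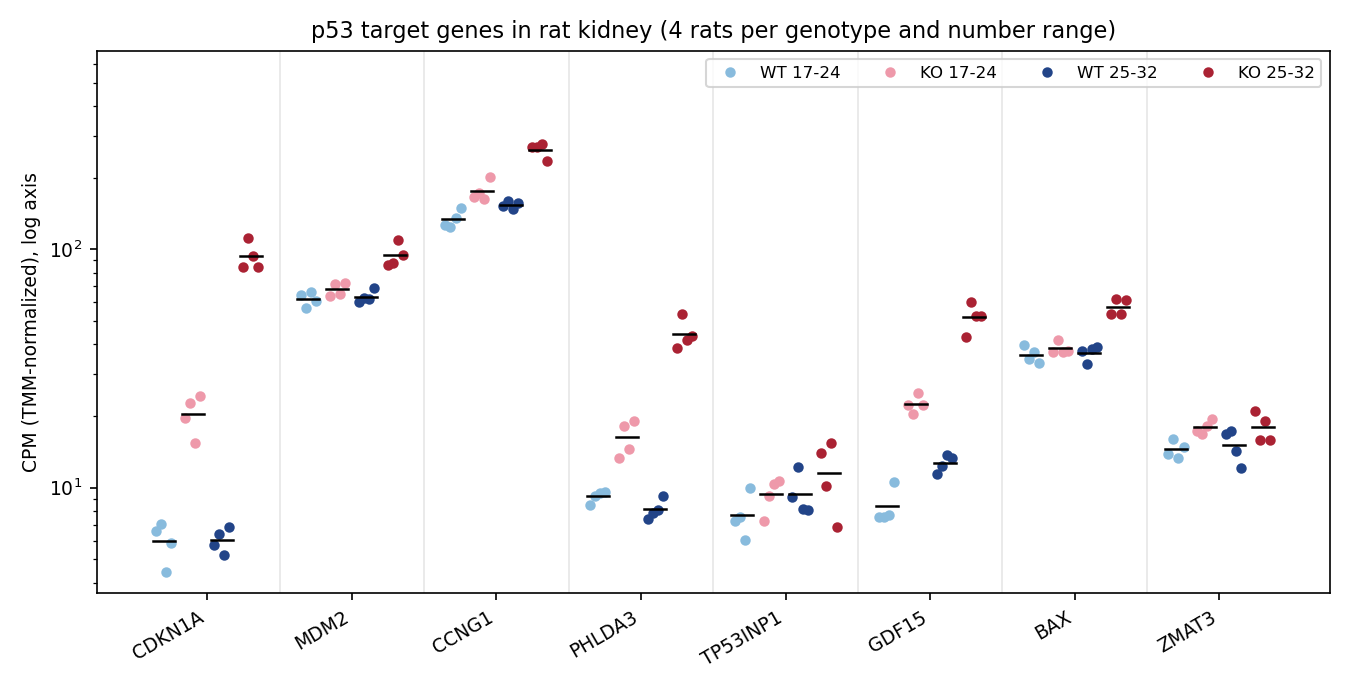
TMM-normalized CPM of 8 p53 target genes in each rat, on a log axis; points are single rats (4 per genotype and number range) and bars are means, and EDA2R is left out because some rats had no read. The KO rats 25 to 32 are highest for CDKN1A, PHLDA3, GDF15, CCNG1, MDM2 and BAX, while TP53INP1 and ZMAT3 overlap between genotypes in that range.

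By edgeR's quasi-likelihood test over all 16 rats, 7 of 8 members tested passed an adjusted p of 0.05 as higher, where 15.2% of symbols did, with TP53INP1 as the exception. In rats 17 to 24 it was 5 of 8 (CDKN1A, CCNG1, PHLDA3, GDF15 and ZMAT3), where 5.07% of symbols were called higher, 2.19% lower and 7.26% in either direction, and groups did not overlap with KO above WT for 7.85%. ZMAT3 lost that call when any 1 of 7 of the 8 rats was left out. In rats 25 to 32 it was 6 of 8 (CDKN1A, MDM2, CCNG1, PHLDA3, GDF15 and BAX), where 21.8% of symbols were called higher, 22.1% lower and 43.8% in either direction, and 20.4% did not overlap with KO above WT. No member was called lower in rats, where 12.3% of symbols were over all 16. The members' median log2FC was 0.36 in the first range and 0.71 in the second, against 0.00 and -0.01 over all symbols tested. Over all rats the groups did not overlap for CDKN1A, CCNG1, PHLDA3 and GDF15, and for 3.89% of symbols with KO above WT. These contrasts chose the members too, and nothing is read from the counts.

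The difference between the 2 ranges in the KO over WT change was largest, among the 9 members, for CDKN1A, at 2.17 ± 0.22 on the log2 scale. It was 1.62 ± 0.17 for PHLDA3, 0.60 ± 0.16 for GDF15, 0.55 ± 0.11 for BAX, 0.45 ± 0.11 for MDM2 and 0.38 ± 0.11 for CCNG1. For ZMAT3 it was -0.06 ± 0.16, for TP53INP1 0.01 ± 0.31 and for EDA2R 0.72 ± 1.43, so EDA2R had no usable precision. In edgeR's interaction test the first 6 were called higher, where 7.1% of symbols were, and 0 of 9 lower, where 7.64% were. The change within each range was known when the members were chosen, so these too are descriptions. When 1 rat was left out the count was 4 to 6, with CCNG1 not called without KO rat 18, 22 or 28 and GDF15 not called without KO rat 28. What the ranges stand for cannot be told apart from whatever else differed between the 2 sets of rats.

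**Figure D3:**
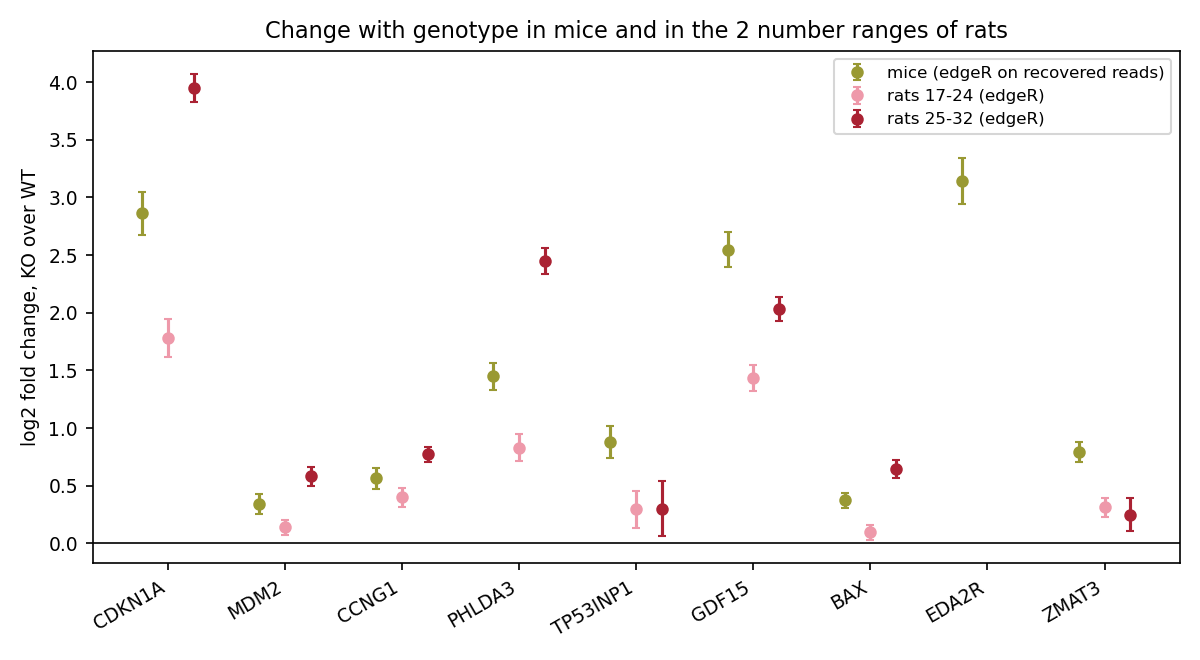
Log2 fold change of KO over WT (vertical axis) for each p53 target gene in mice (4 per genotype, edgeR on recovered reads) and in rats 17 to 24 and 25 to 32 (4 per genotype each, edgeR); bars are standard errors, and EDA2R has no rat value because it was below the filter. CDKN1A and PHLDA3 show the widest gap between the 2 ranges of rats, 1.78 against 3.95 for CDKN1A and 0.83 against 2.45 for PHLDA3.

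A comparison that did not itself choose the members is that of WT rats 25 to 32 with WT rats 17 to 24. The same WT values entered the KO over WT changes that chose them, so it is not fully independent of the choice. Of 8 members tested, GDF15 alone passed, with a log2 difference of 0.58 ± 0.13 and an adjusted p of 0.00896 (edgeR), and the 4 WT rats of the second range were all above those of the first. In this comparison 18.3% of symbols were called in either direction, 8.79% as higher and 9.54% as lower. CDKN1A differed by -0.01 ± 0.16, MDM2 by 0.00 ± 0.07, BAX by 0.01 ± 0.08, ZMAT3 by 0.04 ± 0.12, CCNG1 by 0.18 ± 0.07, PHLDA3 by -0.20 ± 0.10 and TP53INP1 by 0.27 ± 0.18, with adjusted p from 0.0921 to 0.983 in edgeR. The median over the members was 0.02, against -0.01 over all symbols tested.

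Rats of the same genotype and range also differ among themselves, and this variation was not used to choose the members. After subtracting the group means of log2 CPM, PHLDA3 correlated with CDKN1A over the 16 rats with a Pearson r of 0.522 (permutation p 0.0687, adjusted 0.481) and a Spearman rho of 0.571 (permutation p 0.0495, adjusted 0.346). Without the 2 rats farthest from the median of CDKN1A, r was 0.650. For the other 6 members r lay between -0.0344 for GDF15 and 0.298 for CCNG1, with adjusted permutation p of 0.956. None of the 7 relations passed adjustment. Of 10826 symbols, 2.24% correlated with CDKN1A at least as closely as PHLDA3. The 5 symbols most like CDKN1A by this measure were TNFRSF12A (r 0.883), POU2AF1 (0.860), LRRC75A (0.836), LYSMD2 (0.813) and MXRA7 (0.805), as a description over 16 rats.

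MDM4, the partner of MDM2 that inhibits p53, did not pass in mice (adjusted p 0.493 by limma) or in rats (log2FC -0.05 ± 0.14, adjusted p 0.826 by edgeR).

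Beyond the 9 members, a list of 62 regulators and targets of p53 was examined, of which 59 were in the mouse table and 53 in the rat table. In mice 10 of 59 rose by limma, none fell and 49 did not pass, where 4.32% of all symbols were called in either direction. In rats 11 of 48 tested rose, 6 fell and 31 did not pass, where 27.5% were called. With the number range as a covariate, 23 list genes were called in place of 17, and over all symbols 2239 were called higher and 2204 lower in place of 1760 and 1420. The median log2 change of the list was 0.03 in mice, on log2(value + 1), and -0.01 in rats, against 0.00 and -0.02 over all symbols tested. The mouse calls fell to 5 of this list without KO mouse 5 or 6, and to 6 without WT mouse 1.

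Among targets in arrest and stress, 5 of 16 rose in mice by limma and 5 of 14 rose in rats by edgeR, where 2 fell. Of all symbols, 3.5% were called higher in mice, and 15.2% higher and 12.3% lower in rats. BTG2, an antiproliferative gene, was 0.845 to 0.949 in KO and 0.512 to 0.685 in WT mice (log2FC 0.54 ± 0.09, adjusted p 0.00127 by edgeR on recovered reads) and rose in rats by 0.72 ± 0.13 (adjusted p 0.00056). PLK2, a kinase of the polo family, was 0.356 to 0.432 in KO and 0.153 to 0.204 in WT mice (log2FC 1.12 ± 0.11) and rose in rats from a mean of 8.01 to 16 CPM (adjusted p 0.000624 by edgeR). In limma on mice, BTG2 did not pass without KO mouse 5 or 6 or WT mouse 4. EPHA2, an ephrin receptor, and PTP4A1, a phosphatase, rose in mice, with log2FC of 0.77 ± 0.14 and 0.51 ± 0.09, and in rats the values were -0.03 ± 0.13 and 0.19 ± 0.12, neither past the test, while the difference between species was not tested. EPHA2 lost its limma call in mice without KO mouse 5, 6 or 8 or WT mouse 1, 2 or 7. SESN2, a stress-induced inhibitor of mTORC1, fell in rats by 0.43 on the log2 scale (adjusted p 0.000817 by edgeR), from 123 to 168 CPM in WT to 81.7 to 113 CPM in KO rats, and SESN1 also fell. RPS27L, a ribosomal protein paralog, rose in rats by 0.59 ± 0.14 (adjusted p 0.00465 by edgeR), and reads can be shared with its near copy RPS27.

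Among apoptosis targets, 2 of 12 rose in mice by limma (BBC3 and APAF1). In rats 4 of 9 rose by edgeR (PMAIP1, FAS, AEN and SIVA1), and none was lower in either species. Of all symbols, 3.5% were called higher in mice and 15.2% in rats. With edgeR on recovered reads PMAIP1 (adjusted p 0.0419), AEN (0.0341) and SIVA1 (0.0387) also passed as higher in mice, each without overlap. The species are therefore not told apart by these calls. FAS, the death receptor, was 2.11 to 3.16 CPM in KO and 1.11 to 2.05 CPM in WT rats 17 to 24, and 3.93 to 4.58 CPM in KO and 0.889 to 1.37 CPM in WT rats 25 to 32 (log2FC over all rats 1.37 ± 0.19, adjusted p 8.26e-05 by edgeR). In mice FAS was 0.225 to 0.242 in KO and 0.170 to 0.236 in WT, with overlap. Among genes of DNA repair and metabolism, 2 of 15 rose in mice (EPHX1 and RAP2B), while 1 of 12 rose (RAP2B) and 4 fell in rats (XPC, PANK1, CMBL and DCXR). EPHX1, a microsomal epoxide hydrolase, was 2.7 to 3.27 in KO and 1.60 to 1.77 in WT mice, and RAP2B, a small GTPase, rose by 0.77 ± 0.11 in mice and 0.95 ± 0.15 in rats. CMBL, a hydrolase, fell in rats by 0.55 on the log2 scale (adjusted p 0.000368 by edgeR), from 311 to 440 CPM in WT to 205 to 302 CPM in KO rats. Of the 16 regulators 1 rose in mice by limma, CHEK1, on 15 to 19 reads in WT and 27 to 60 reads in KO libraries. Of 13 tested in rats 1 rose by edgeR, CHEK2. The counts for repair and metabolism genes and for regulators stand beside 3.5% of all symbols called higher in mice. In rats 15.2% of all symbols were called higher and 12.3% lower, and nothing is read from these counts. CHEK2 was also higher in mice by edgeR on recovered reads (adjusted p 0.0437), without overlap.

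Of the 48 list genes tested in both species, 4 passed as higher in both, BTG2, PLK2 and RAP2B among them. In these fits, limma for mice and edgeR for rats, 0 passed in opposite directions. CHEK2, E2F7, PMAIP1, AEN and SIVA1 passed as higher in rats, and in mice only with edgeR on recovered reads (adjusted p 0.0291 to 0.0437). The share of all symbols that passed as higher in both species was not computed. The list's interaction test in rats called 6 of 48 higher in the second range (BTG2, PLK2, RPS27L, FAS, AEN and SIVA1) and 4 lower (USP7, XPC, PANK1 and CMBL), where 14.7% of symbols were called in either direction.

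**Figure D4:**
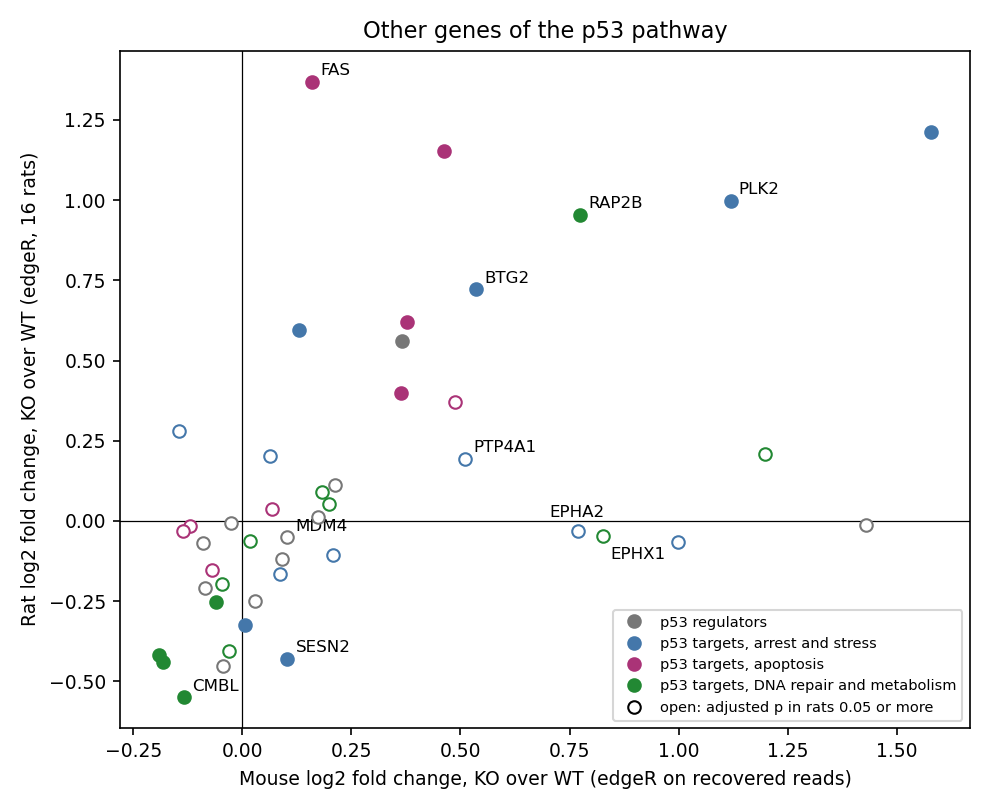
Log2 fold change of KO over WT in mice (horizontal axis, edgeR on recovered reads) against that in 16 rats (vertical axis, edgeR) for 45 other p53 regulators and targets; each point is a gene coloured by its list, and the 16 filled points passed an adjusted p of 0.05 in rats. PLK2, RAP2B and BTG2 are to the upper right, FAS is at 1.37 in rats and 0.16 in mice, and SESN2 and CMBL lie below 0 in rats.

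Genes of the cell cycle rose in the same kidneys as CDKN1A. In mice 7 of 8 rose by limma and in rats 6 of 6 by edgeR, where 3.5% and 15.2% of all symbols were called higher. CDC20, not called by limma in mice, passed with edgeR on recovered reads (adjusted p 0.00089). MKI67, which marks cycling cells, was 0.447 to 0.916 in KO and 0.0891 to 0.158 in WT mice. In KO rats it was 16.1 to 28.4 CPM in the range 17 to 24 and 24.4 to 32.4 CPM in the range 25 to 32, against 4.12 to 7.44 CPM over all WT rats. Its log2FC was 2.15 ± 0.17 and 2.2 ± 0.15, a difference between ranges of 0.04 ± 0.23 (adjusted p 0.912 by edgeR), beside 2.17 for CDKN1A. CCNA2, the gene of cyclin A2, had a difference of 0.71 ± 0.25 (adjusted p 0.061 by edgeR). CDK1 and PCNA were called higher, 2 of 6, where 7.1% of symbols were. The paralogs CDKN1B, of p27, and CDKN1C, of p57, were not called between genotypes. CDKN1B had adjusted p 0.950 in mice (limma) and 0.0854 in rats (edgeR), and CDKN1C, in the mouse table only, had adjusted p 0.725 (limma).

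Some markers of other cells also differed between genotypes, and others did not. In bulk tissue, fewer cells of a type and less RNA per cell cannot be told apart. The summed level of 6 macrophage markers was 91.2 to 112 CPM in WT and 128 to 149 CPM in KO mice. For rats 17 to 24 it was 63.5 to 74.9 CPM in WT and 88.2 to 99.6 CPM in KO. For rats 25 to 32 it was 82.0 to 96.1 CPM in WT and 139 to 177 CPM in KO. WT rats thus differed between the ranges too, with CD68 and CSF1R called higher and CD14 lower in the second by edgeR. Shares of all symbols there were 8.79% higher and 9.54% lower. Of the 6 macrophage markers, 3 rose in mice by limma and 5 in rats by edgeR, all but ADGRE1. Of all symbols, 3.5% were called higher in mice and 15.2% in rats, and 0.817% and 12.3% lower. CSF1R and LYZ also passed as higher in mice with edgeR on recovered reads. The sum of 4 fibroblast markers was 103 to 131 CPM in WT and 194 to 212 CPM in KO mice, and 163 to 179 CPM in WT rats, 210 to 303 CPM in KO rats 17 to 24 and 360 to 404 CPM in KO rats 25 to 32, with 2 of 4 higher in mice and 4 of 4 in rats. The sum of 4 lymphocyte markers was 2.13 to 2.82 CPM in WT and 4.66 to 5.22 CPM in KO rats 17 to 24. For rats 25 to 32 it was 3.85 to 5.76 CPM in WT and 8.97 to 10.6 CPM in KO. Mice overlapped between genotypes. CD3E and CD8A were also higher in WT rats of the second range than of the first, by 1.25 ± 0.25 and 0.93 ± 0.23 on the log2 scale. Their adjusted p was 0.00592 and 0.0166 by edgeR. Proximal tubule markers, 5 genes in rats, summed to 8961 to 10860.5 CPM in WT and 7509 to 7941 CPM in KO rats 17 to 24. For rats 25 to 32 the sums were 11186 to 12520 CPM in WT and 5795 to 6954 CPM in KO. Over all rats 3 of 5 were lower in KO, while in mice 0 of 6 passed and the sums overlapped. Between the WT ranges SLC22A6 and AQP1 were called higher and CUBN lower in the second by edgeR. Markers of the distal nephron (0 of 5 called in mice, 2 of 3 higher in rats) and of podocytes and endothelium (0 of 4 called in mice, 0 of 3 in rats) were measured as well, and no marker was at 0 in any whole group. KDR, of the last list, was lower in mice with edgeR on recovered reads (log2FC -0.37 ± 0.08, adjusted p 0.00959). It was also lower in rats 25 to 32 (log2FC -0.37 ± 0.07, adjusted p 0.00199 by edgeR), but not called in rats 17 to 24. The part of these cell types in the values of the 9 genes was not tested.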

How the data were processed

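RNA from 8 mice and 16 rats was sequenced as stranded polyA libraries (TruSeq), 100-nt paired reads on an Illumina sequencer. The submitters' processing notes name bcl2fastq 2.20, STAR 2.7.3, DESeq2 1.24.0, R 3.6.1 and the builds mm10 and rn5, without their roles. How reads were counted, and whether by strand, is not given in the sources used here. The mouse table deposited by the authors holds a scaled signal. From its values it equals (reads + 0.5) divided by (the library's 75th percentile + 0.5). The rat table deposited by the authors holds estimated counts, reads plus 1 divided by 6. Whole reads were recovered for 99.0% of mouse and 97.7% of rat values (within 0.01 of a whole number), and for all 9 members. Recovered reads were rounded.

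Genotype came from the labels. For the mice, log2(value + 1) of every symbol was fitted by limma 3.58.1 with a mean-variance trend and robust moderation, and for the rats reads were fitted by edgeR 4.0.16 (quasi-likelihood, robust, TMM, filterByExpr), in R 4.3.3. Benjamini-Hochberg adjustment ran over all symbols at 0.05. The rats' CPM values use TMM library sizes. Covariation used 100000 permutations within groups. Alternatives were a pseudocount of 0.1, a mean value of at least 0.1, edgeR on the mouse reads, DESeq2 1.42.0 and its size factors, no filter, the number range as a covariate, and leaving out each animal. In simulated data, 72.5% of 200 genes changed by 2 fold were recovered for mice (17376 genes) and 100% for rats over all animals (11643 genes). The changed genes were drawn from well-counted genes, at a fixed dispersion and without a difference between number ranges. Recovery of genes with few reads or a wider spread was not measured. Nothing beyond the labels says that the animals are independent of each other in litter or handling. The p-values assume this independence and may be too small without it.

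Members, lists and tests were chosen with earlier results of these data known. Named by rule were the members, MDM4, CTNS, pathway genes past the threshold in both species, in each species the 5 with the largest change and no overlap between genotypes, MKI67, CCNA2, CDKN1B, CDKN1C, and the 5 symbols most like CDKN1A over rats. On CPM without TMM, computed first, RPS27L took the place of CMBL in this rule, and both are described. Mouse positions are from GENCODE vM21 on GRCm38, and CPM per kb uses merged exons. Some genes that the rule names are not reported here.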

Additional observations from a re-analysis of the deposited data

Results flagged for a closer look

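For 6 of the 9 members the change of KO over WT was called larger in rats 25 to 32 than in rats 17 to 24 by edgeR's interaction test, where 7.1% of all symbols were. The change within each range was used to choose the members, so these values are a description and not a test. The log2 difference was 2.17 for CDKN1A, 1.62 for PHLDA3, 0.60 for GDF15, 0.55 for BAX, 0.45 for MDM2 and 0.38 for CCNG1. Of the other pathway genes named by rule, it was 1.08 for FAS (adjusted p 0.0151), 0.97 for PLK2 (adjusted p 0.000389) and 0.73 for BTG2 (adjusted p 0.00892), all by edgeR, and -0.58 for CMBL (adjusted p 0.00388 by edgeR), whose fall was deeper in the second range. CMBL was also 0.25 higher on the log2 scale in WT rats 25 to 32 than in WT rats 17 to 24 (adjusted p 0.0292 by edgeR).

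CCNG1 in WT mouse 7, at a scaled value of 5.16, stood apart from the other 3 WT mice at 4.28 to 4.35, and was still below every KO mouse. It was the 1 outlying value in 36 groups of member values examined, where chance marks about 1 group in 20.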

How the results depend on the processing

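The count of members past the threshold was 8 in mice (6 to 8 when 1 animal was left out, 9 with a mean value of at least 0.1 or edgeR on recovered reads), 7 in rats (7 in each such fit), 5 in rats 17 to 24 (4 to 5), 6 in rats 25 to 32 (6 to 7), 6 in the interaction (4 to 6) and 1 in WT rats between ranges (1 to 2). In that last comparison DESeq2 gave 2, with CCNG1 added, as did leaving out WT rat 23. Among the other pathway genes the counts were 10 in mice (5 to 9), 17 in rats (15 to 18), 8 in rats 17 to 24 (4 to 7), 27 in rats 25 to 32 (22 to 29), 10 in the interaction (8 to 15) and 13 between WT ranges (6 to 13), where fits without 1 animal also had fewer samples. In mice edgeR on recovered reads called the same 10 genes as limma, and also CHEK2, E2F7, PMAIP1, AEN and SIVA1. Counts fell by more than 1.5 times without KO mouse 5 or 6 or WT mouse 1, without KO rat 18, 20, 22 or 24 or WT rat 21 in rats 17 to 24, and without WT rat 19 or 29 between WT ranges. Over all symbols the number range as a covariate gave 2239 higher and 2204 lower in rats, against 1760 and 1420, with 7 members called in each fit. Without 1 rat, symbols called higher and lower were 392 to 618 and 112 to 312 in rats 17 to 24 (589 and 254 with all) and 487 to 1025 and 523 to 1388 in the interaction (841 and 904 with all), lowest without KO rat 24 and KO rat 28. Signs turned for values near 0 in these fits, given as ranges without 1 animal unless stated. In WT rats between ranges CDKN1A was 0.0049 with DESeq2 and with its size factors in edgeR and -0.130 to 0.085 otherwise, MDM2 -0.038 to 0.035, BAX -0.026 to 0.065 and ZMAT3 -0.032 to 0.134. The interaction of TP53INP1 was -0.155 to 0.193, of EDA2R -0.11 to 1.64 and of ZMAT3 -0.150 to 0.017. In rats EPHX1 was -0.110 to 0.044 and EPHA2 -0.088 to 0.046, and in mice CMBL was -0.147 to 0.010. The cause was not tested. Depth limits EDA2R in rats. No paired analysis was possible, because litter is not tied to samples in the sources used here and KO and WT animals share no number. A shared litter was therefore not modelled.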

Other observations

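CHEK1, the checkpoint kinase gene in the p53 regulator list, was among the least abundant list genes in mice. Its mean scaled value was 0.0124 in WT and 0.0320 in KO kidneys, which is 0.584 and 1.52 on the CPM scale. The rat means were 190 CPM in WT and 189 CPM in KO. The log2FC in rats was -0.01 ± 0.05 (adjusted p 0.875 by edgeR). What the rat row counts was not tested, and its values are given under the symbol that the table carries.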
